A study of Mus musculus with 12 samples.

Results

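Trp53, the mouse gene of the transcription factor p53, and 9 genes that p53 is known to activate were followed through 12 RNA-seq libraries of mouse embryonic stem cells (ESCs). The 10 genes were taken by symbol (Trp53, Cdkn1a, Mdm2, Ccng1, Trp53inp1, Bax, Bbc3, Phlda3, Perp and Sesn2) from a table of counts for 23336 genes. All 10 were in the table, and all 10 passed the filter on low counts that left 12814 genes for testing. The study set female lines, WT and RlimKO, beside a male line to follow X inactivation without Rlim, the gene of an X-linked ubiquitin ligase. Each line was sampled differentiated and undifferentiated, with 2 libraries per group in 6 groups. The female line labelled RlimKO, the female WT line Pgk12.1 and the male WT line E14 carry the strain label C57BL/6 in all libraries. Differentiated cells had spent 3 days as embryoid bodies without LIF, the cytokine that holds mouse ESCs undifferentiated, and 6 further days of culture in 7.5% O2. Undifferentiated cells were grown with LIF. The RlimKO genotype and the male sex each rest on 1 line, so the effect of either cannot be told apart from that of its line. Nothing in the labels says that the libraries of a group are separate cultures. The p-values therefore describe the spread between these libraries alone, and that spread may be technical.

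The p53 protein is held at a low level by the ubiquitin ligase Mdm2 and accumulates after DNA damage and other stress, mainly because it is degraded less. It then binds DNA and switches on genes that stop the cell cycle, start cell death, repair DNA and adjust metabolism. Mdm2 is itself a target, which closes a negative feedback loop. Mouse ESCs are known for abundant p53, and the level of an mRNA is no measure of the protein or of its activity.

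Gene counts per library ran between 2011919 and 5401940. Rn45s, a ribosomal RNA precursor, took between 6.36% (differentiated male replicate 2) and 67.7% (differentiated RlimKO-labelled replicate 1) of them, so the depth for other genes varied more than the totals. The 2 differentiated male libraries differed from each other by a chi-square of 24.8 per degree of freedom over genes, against 1.85 to 2.32 in the other 5 pairs, and the name of replicate 2 lies outside the numbering of all the other libraries. All 12 libraries share 1 estimate of spread, so this pair widens the errors of every comparison. Rlim, the targeted gene, was checked first. Its level was 290.1 and 299 CPM (counts per 1e+06 counts, after TMM scaling) in differentiated RlimKO-labelled libraries, against 258 and 266 CPM in differentiated WT female libraries. In undifferentiated cells it was 160.0 and 150.0 CPM in RlimKO-labelled libraries, against 267 and 282 CPM in WT female libraries. In the male line it was 267 and 275 CPM in differentiated libraries and 212 and 273 CPM in undifferentiated libraries. Rlim mRNA was thus no lower in differentiated libraries with the RlimKO label, and the labels do not give the deleted part of the gene, so counts over the whole gene may not show the deletion. The line is called RlimKO-labelled here.

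The start regions of the members are shown because each bears on whether the gene carries, near its start, the sequence p53 binds. RefSeq windows of 300 bases (250 before the start and 50 after it, GRCm38.p6) were found for 8 of the 10 genes, and not for Trp53inp1 and Perp. The exact p53 half-site, a palindromic motif of 10 letters that reads the same way on both strands, lay in the windows of 5 genes: Cdkn1a, Mdm2, Ccng1, Bax and Trp53 itself. Of all 32851 windows in the table, 8.36% hold one. That share is per window, whereas the count is per gene, and Bbc3 and Cdkn1a had more than 1 window each. Each stretch runs 5′ to 3′ on the gene's strand, and capitals mark the half-sites.
Cdkn1a, chr17:29090861-29090978, plus strand: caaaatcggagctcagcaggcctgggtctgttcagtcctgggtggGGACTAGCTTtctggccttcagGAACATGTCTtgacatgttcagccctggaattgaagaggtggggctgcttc
Mdm2, chr10:117710890-117710989, minus strand: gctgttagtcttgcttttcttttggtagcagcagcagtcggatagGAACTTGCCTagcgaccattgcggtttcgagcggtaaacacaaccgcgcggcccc
Ccng1, chr11:40755417-40755516, minus strand: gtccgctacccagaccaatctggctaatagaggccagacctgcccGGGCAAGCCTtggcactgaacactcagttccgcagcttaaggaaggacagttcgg
Bax, chr7:45467045-45467144, minus strand: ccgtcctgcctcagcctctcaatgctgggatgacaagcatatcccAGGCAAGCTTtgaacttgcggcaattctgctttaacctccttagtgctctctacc
Trp53, chr11:69580239-69580338, plus strand: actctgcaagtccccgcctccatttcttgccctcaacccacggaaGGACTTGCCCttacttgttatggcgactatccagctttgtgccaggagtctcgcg
The Cdkn1a stretch held 2 exact half-sites with 12 bases between them, the first starting 73 bases before the transcript start of that window. Only the pair with the fewest mismatches was recorded for each window. In the printed stretch, the 10 bases directly after the second exact half-site also match the motif, with 1 mismatch. That half-site thus has a closer partner, which adjoins it. The other Cdkn1a window, at a start further downstream (chr17:29093519-29093818), held no exact half-site, and its best pair had 5 mismatches. A pair of exact half-sites no more than 13 bases apart was present in 0.0731% of all windows. In Ccng1 a second half-site adjoined the first and in Bax it lay 1 base away, each pair with 1 mismatch. A pair with at most 1 mismatch, at any spacing up to 13 bases, was present in 1.09% of windows. Mdm2 and Trp53 each had 1 exact half-site, and their best pairs had 4 and 3 mismatches, which 89.3% and 45.1% of windows match. These are letter matches in the genome and no measurement of binding. Sequence outside the windows was not searched, so p53 elements elsewhere in these genes would have been missed.

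Levels between genes were compared per kilobase of exon. Ccng1, which encodes cyclin G1, stood first in differentiated cells, at 72.8 ± 3.94, 121 ± 9.44 and 80.9 ± 27.0 CPM per kb in the RlimKO-labelled, WT female and male lines (mean ± SD, n = 2 each). No library of any other member reached its level within those groups. In undifferentiated cells Trp53 and Ccng1 shared the top: Trp53 had 33.8 ± 0.567 CPM per kb and Ccng1 32.5 ± 2.17 CPM per kb in the RlimKO-labelled line, with overlapping libraries. In the undifferentiated male line their libraries also overlapped, at 42.2 ± 2.47 and 41.6 ± 2.71 CPM per kb for Trp53 and Ccng1, while in the undifferentiated WT female line Ccng1 was above Trp53 in both libraries (48.8 ± 6.45 and 36.6 ± 4.58 CPM per kb). Bbc3, which encodes the cell-death protein PUMA, was lowest in 5 of the 6 groups, down to 1.40 ± 0.847 CPM per kb in the differentiated RlimKO-labelled line, where it rested on 8 and 7 counts. The order of the genes between was often not separable, since in most groups several neighbours in the order had overlapping libraries.

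**Figure D1:**
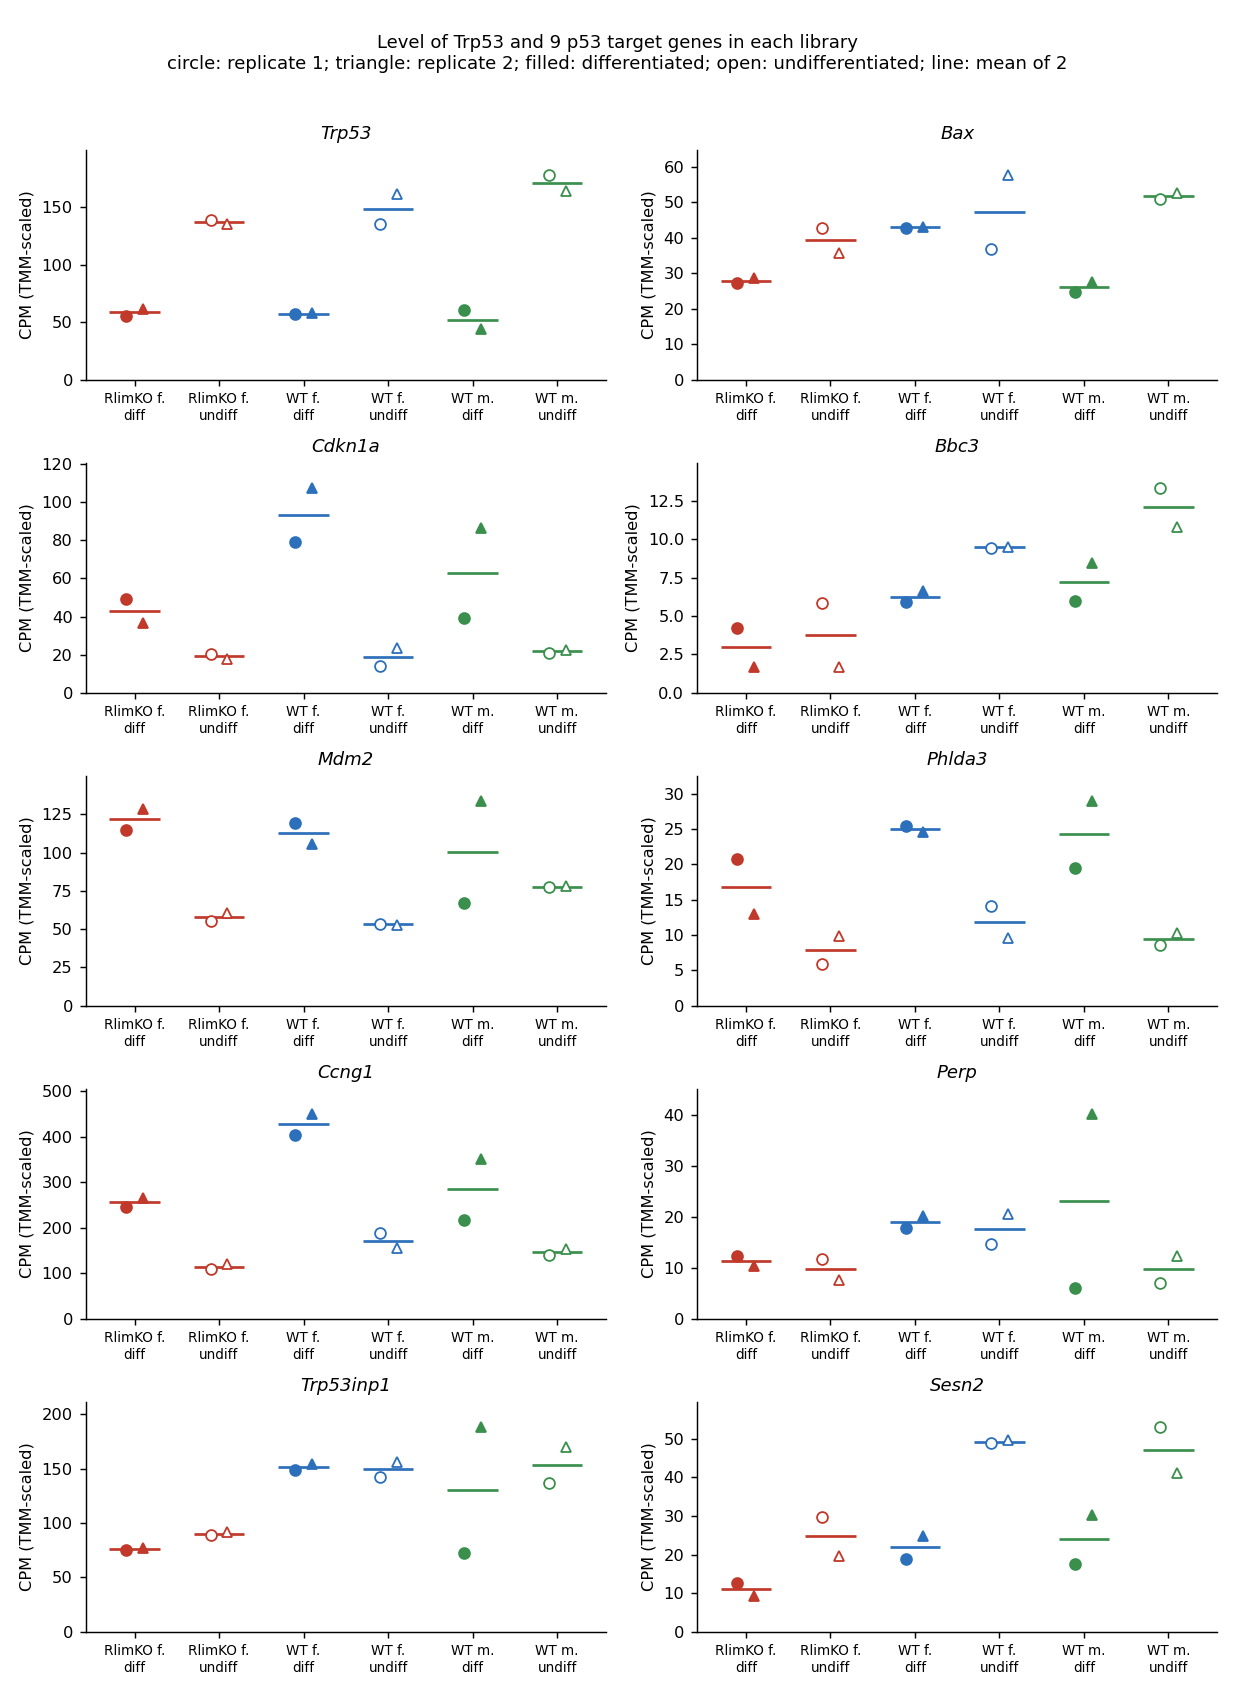
Level of each of the 10 genes in CPM (counts per 1e+06 of TMM-scaled library size, y axes starting at 0) in every library, with the RlimKO-labelled female line (red), the WT female line (blue) and the WT male line (green). Circles are replicate 1, triangles replicate 2, filled symbols differentiated and open symbols undifferentiated cells, and lines are means of 2. Trp53 lies lower and Cdkn1a and Ccng1 higher in every differentiated library than in any undifferentiated one of the same line, and the 2 differentiated male libraries lie far apart for Perp (5.97 and 40.2 CPM) and Trp53inp1 (72.8 and 188 CPM).

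The first question was how p53 and its targets stand in differentiated against undifferentiated cells of each line. In all 3 lines Trp53 mRNA fell while Cdkn1a, Ccng1 and Phlda3 rose, and Sesn2 fell. Mdm2 rose in both female lines, and Bax fell in the male line. This made 6 of 10 members called in the RlimKO-labelled line (4 higher, 2 lower), beside 48% of all tested genes (26.4% higher, 21.6% lower), 6 of 10 in the WT female line (4 higher, 2 lower), beside 48.7% (26.5% higher, 22.2% lower), and 6 of 10 in the male line (3 higher, 3 lower), beside 54% (28.7% higher, 25.4% lower). These shares are near the background, since differentiation changed about that portion of all genes. A gene is called here when its Benjamini-Hochberg adjusted p over the 12814 genes, from edgeR's quasi-likelihood F test, is below 0.05. The median log2 fold change of the 10 members was -0.01 in the RlimKO-labelled line, 0.06 in the WT female line and 0.08 in the male line, beside 0.10, 0.09 and 0.05 over all tested genes. In bulk RNA, fewer cells that express a gene and less of its RNA per cell cannot be told apart.

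Trp53 encodes p53 itself (chr11:69580359-69591873, plus strand). It had 55.8 and 61.2 CPM in differentiated and 138 and 135 CPM in undifferentiated RlimKO-labelled libraries. In the WT female line it had 57.2 and 57.8 CPM in differentiated and 135 and 161 CPM in undifferentiated libraries. Male cells had 60.2 and 44.0 CPM in differentiated and 178 and 164 CPM in undifferentiated libraries. All 6 differentiated libraries lay below all 6 undifferentiated ones. The log2 fold change was -1.22 ± 0.18 (SE, edgeR adjusted p = 5.56e-05) in the RlimKO-labelled line, -1.37 ± 0.17 (1.5e-05) in the WT female line and -1.72 ± 0.17 (1.01e-06) in the male line. Each of these calls held when any 1 of the 12 libraries was left out.

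Mdm2 (chr10:117688875-117710758, minus strand) encodes the ligase that marks p53 for degradation. Its level was 115 and 129 CPM in differentiated against 55.5 and 60.5 CPM in undifferentiated RlimKO-labelled libraries. WT female cells had 119 and 106 CPM in differentiated against 53.6 and 52.9 CPM in undifferentiated libraries. The male line had 66.8 and 134 CPM in differentiated against 77.3 and 78.0 CPM in undifferentiated libraries. The female lines were cleanly separated, whereas 1 differentiated male library lay below and the other above the undifferentiated pair. Mdm2 rose with a log2 fold change of 1.07 ± 0.25 in RlimKO-labelled cells (edgeR adjusted p = 0.00284) and 1.08 ± 0.25 in WT female cells (0.00253). In the male line the value was 0.38 ± 0.23 (adjusted p = 0.182), and without differentiated male replicate 1 it was 0.85 (1e-06).

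Ccng1 (chr11:40748552-40755311, minus strand) encodes cyclin G1, which takes part in the feedback on p53 through Mdm2. It had 246 and 266 CPM in differentiated against 109 and 119 CPM in undifferentiated RlimKO-labelled libraries. The WT female line had 403 and 450.0 CPM in differentiated against 187 and 155 CPM in undifferentiated libraries. In the male line it had 217 and 351 CPM in differentiated against 139 and 153 CPM in undifferentiated libraries. Every differentiated library was above every undifferentiated one, across lines as well as within them. Ccng1 rose with a log2 fold change of 1.17 ± 0.20 (edgeR adjusted p = 0.000279) in the RlimKO-labelled line, 1.32 ± 0.20 (7.49e-05) in the WT female line and 0.96 ± 0.19 (0.000765) in the male line, and each call held without any 1 library.

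Cdkn1a (chr17:29090976-29100727, plus strand) encodes p21, the inhibitor of cyclin-dependent kinases through which p53 stops the cell cycle. It stood at 49.4 and 36.6 CPM in differentiated against 20.4 and 17.9 CPM in undifferentiated RlimKO-labelled libraries. In the WT female line it stood at 78.9 and 108 CPM in differentiated against 14.2 and 23.4 CPM in undifferentiated libraries. Male cells had 39.3 and 86.5 CPM in differentiated against 20.8 and 22.7 CPM in undifferentiated libraries. The libraries did not overlap in any line, and the highest levels were those of the WT female line and of 1 male library. Cdkn1a rose 2.22-fold (log2 1.15 ± 0.36, edgeR adjusted p = 0.0177) in the RlimKO-labelled line, 4.92-fold (2.30 ± 0.35, 8.48e-05) in the WT female line and 2.91-fold (1.54 ± 0.32, 0.001) in the male line. In the RlimKO-labelled line the call was lost without undifferentiated replicate 1 of that line (log2 1.13, adjusted p = 0.081), without undifferentiated replicate 2 (0.91, 0.17) and without differentiated replicate 1 (0.94, 0.0999). Exons of Cdkn1a overlap an annotated gene of unknown status on the opposite strand that has no entry in the count table. The library protocol does not mark strand, so reads of that gene could have counted here.

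Among the cell-death targets, Bax (chr7:45461697-45466898, minus strand) encodes the protein that permeabilises the outer mitochondrial membrane. It had 27.1 and 28.5 CPM in differentiated against 42.6 and 35.8 CPM in undifferentiated RlimKO-labelled libraries. WT female cells had 42.8 and 42.9 CPM in differentiated against 36.8 and 57.7 CPM in undifferentiated libraries. The male line had 24.6 and 27.4 CPM in differentiated against 50.9 and 52.5 CPM in undifferentiated libraries. The levels were apart in the RlimKO-labelled and male lines and overlapped in the WT female line. Bax fell in the male line (log2 fold change -0.99 ± 0.20, edgeR adjusted p = 0.00093, held without any 1 library). The value was -0.48 ± 0.23 in RlimKO-labelled cells (adjusted p = 0.0894) and -0.14 ± 0.21 in WT female cells (0.596). In the RlimKO-labelled line it passed without WT female undifferentiated replicate 1 or 2 (-0.61 each, 0.022 and 0.0227), without differentiated male replicate 1 (-0.52, 0.0271) or 2 (-0.51, 0.0323), and with TMM factors computed without Rn45s and Lars2 (-0.58, 0.0419). A readthrough gene on the same strand shares exons with Bax and is not in the count table.

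Bbc3 (chr7:16308393-16318205, plus strand) encodes PUMA, which activates Bax and its relatives. Its level was 4.25 and 1.71 CPM in differentiated against 5.84 and 1.70 CPM in undifferentiated RlimKO-labelled libraries. The WT female line had 5.92 and 6.62 CPM in differentiated against 9.45 and 9.53 CPM in undifferentiated libraries. In the male line it was 5.97 and 8.49 CPM in differentiated against 13.4 and 10.8 CPM in undifferentiated libraries. Both WT lines were lower after differentiation without overlap, and the RlimKO-labelled libraries overlapped. No change passed the test, with log2 values of -0.41 ± 0.63 (edgeR adjusted p = 0.614) in the RlimKO-labelled line, -0.60 ± 0.47 (0.307) in the WT female line and -0.71 ± 0.42 (0.172) in the male line. Counts of 4 to 79 per library stood behind these levels. The values in both WT lines were larger than their standard errors but were not called, and the part of depth in this was not tested.

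Phlda3 (chr1:135766119-135769136, plus strand) encodes a repressor of Akt signalling that favours cell death. It had 20.7 and 12.9 CPM in differentiated against 5.84 and 9.80 CPM in undifferentiated RlimKO-labelled libraries. In the WT female line it had 25.5 and 24.6 CPM in differentiated against 14.2 and 9.53 CPM in undifferentiated libraries. Male cells had 19.5 and 29.0 CPM in differentiated against 8.54 and 10.4 CPM in undifferentiated libraries. Within each line the differentiated libraries were the higher ones. Phlda3 rose with a log2 fold change of 1.02 ± 0.37 (edgeR adjusted p = 0.0354) in the RlimKO-labelled line, 1.08 ± 0.34 (0.015) in the WT female line and 1.36 ± 0.32 (0.00229) in the male line. The male call held without any 1 library. The WT female call was lost without undifferentiated WT female replicate 2 (0.75, adjusted p = 0.169) or without differentiated WT female replicate 1 (1.07, 0.0625) or 2 (1.05, 0.0601). The RlimKO-labelled call held in 5 of 12 fits that left out a library. It was lost without undifferentiated RlimKO-labelled replicate 1 (0.62, 0.284) or 2 (1.34, 0.0581), without differentiated RlimKO-labelled replicate 1 (0.70, 0.213), without undifferentiated WT female replicate 1 (0.90, 0.0606) or 2 (0.90, 0.0605), without undifferentiated male replicate 1 (0.90, 0.0694) and without differentiated WT female replicate 2 (0.91, 0.0761). TMM factors computed without Rn45s and Lars2 (0.92, 0.0535) and DESeq2 (1.03, 0.0768) also left it uncalled.

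Perp (chr10:18845020-18857073, plus strand) encodes a membrane protein of desmosomes that is also a p53 effector in cell death. It stood at 12.2 and 10.2 CPM in differentiated against 11.7 and 7.67 CPM in undifferentiated RlimKO-labelled libraries. WT female cells had 17.8 and 20.1 CPM in differentiated against 14.7 and 20.5 CPM in undifferentiated libraries. The male line had 5.97 and 40.2 CPM in differentiated against 7.06 and 12.3 CPM in undifferentiated libraries. The groups overlapped in every line, and the 2 differentiated male libraries held the lowest and the highest level of all 12. The log2 fold change was 0.22 ± 0.69 (edgeR adjusted p = 0.813) in the RlimKO-labelled line, 0.10 ± 0.59 (0.906) in the WT female line and 1.26 ± 0.57 (0.0751) in the male line. Without differentiated male replicate 1 the male value was 2.04 (7.44e-11), and with no filter on low counts it was 1.30 (0.000195).

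Trp53inp1 (chr4:11156431-11174379, plus strand) encodes a stress protein that acts with p53 in arrest and cell death. Its level was 75.4 and 76.8 CPM in differentiated against 88.7 and 91.2 CPM in undifferentiated RlimKO-labelled libraries. The WT female line had 149 and 154 CPM in differentiated against 142 and 156 CPM in undifferentiated libraries. In the male line it was 72.8 and 188 CPM in differentiated against 137 and 170.2 CPM in undifferentiated libraries. The RlimKO-labelled libraries were slightly lower after differentiation, the WT female ones overlapped and the differentiated male pair lay on both sides of the undifferentiated one. Values were -0.24 ± 0.31 (edgeR adjusted p = 0.548) in the RlimKO-labelled line, 0.02 ± 0.29 (0.959) in the WT female line and -0.22 ± 0.29 (0.531) in the male line. The male value was 0.35 (0.0318) without differentiated male replicate 1 and -1.03 (8.84e-08) without replicate 2, so its direction rested on which of them was kept.

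Sesn2 (chr4:132492032-132510501, minus strand) encodes sestrin 2, which restrains mTORC1 and limits oxidative stress. It had 12.8 and 9.27 CPM in differentiated against 29.8 and 19.6 CPM in undifferentiated RlimKO-labelled libraries. In the WT female line it had 18.7 and 24.9 CPM in differentiated against 48.8 and 49.6 CPM in undifferentiated libraries. Male cells had 17.7 and 30.2 CPM in differentiated against 53.1 and 41.2 CPM in undifferentiated libraries. Within every line both differentiated libraries were the lower ones, opposite to Cdkn1a, Ccng1 and Phlda3. Sesn2 fell with a log2 fold change of -1.19 ± 0.34 (edgeR adjusted p = 0.00972) in the RlimKO-labelled line, -1.18 ± 0.29 (0.00346) in the WT female line and -0.94 ± 0.27 (0.00892) in the male line. The RlimKO-labelled call was lost without its undifferentiated replicate 1 (-0.99, adjusted p = 0.0678) or differentiated replicate 2 (-0.93, 0.127), the WT female call without its differentiated replicate 1 (-0.97, 0.0524) and the male call without its undifferentiated replicate 1 (-0.76, 0.083).

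**Figure D2:**
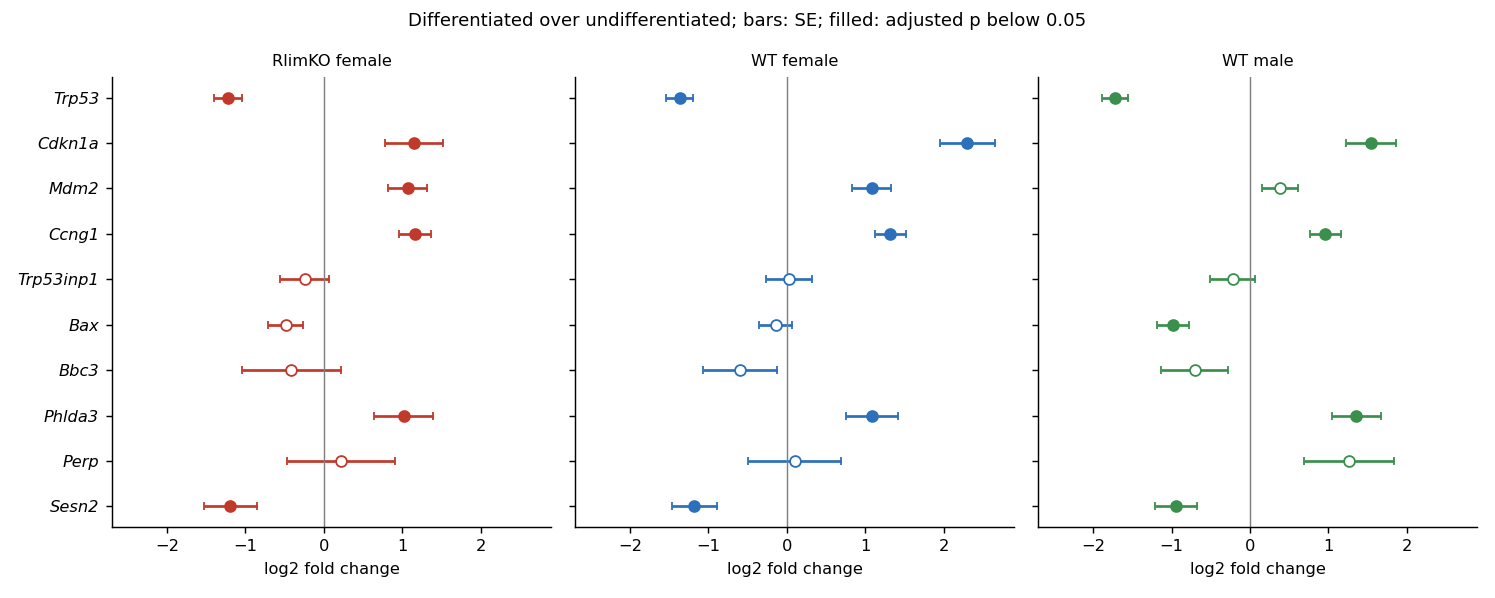
Log2 fold change of each gene, differentiated over undifferentiated, in the RlimKO-labelled female, WT female and WT male lines (x axis, bars are standard errors, n = 2 libraries per group). Filled points have an edgeR adjusted p below 0.05: Trp53 and Sesn2 lie left of 0 and Cdkn1a, Ccng1 and Phlda3 right of 0 in each panel, Mdm2 is filled in both female panels and Bax in the male panel.

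Whether the change on differentiation differed between lines was tested as an interaction. None of the 10 members was called between the RlimKO-labelled and WT female lines (1 member at an unadjusted p below 0.05, beside 9.85% of all genes, 0 by DESeq2), where 0.203% of all genes were called. Cdkn1a had the smallest p: the log2 change in the RlimKO-labelled line minus that in the WT female line was -1.15 ± 0.51 (edgeR adjusted p = 0.474). Without differentiated male replicate 1 that difference was -1.22 (0.014), without replicate 2 it was -1.19 (0.0181), and in a model of the 8 libraries compared it was -1.23 (0.00988). None was called between the WT female and male lines (1 at an unadjusted p below 0.05, Bax, beside 15.3% of genes, 0 by DESeq2), beside 1.39% of all genes. None was called between the RlimKO-labelled and male lines (0 at an unadjusted p below 0.05, beside 17.7% of genes, 0 by DESeq2), beside 2.61%. Without differentiated male replicate 2 there were 5 calls between the WT female and male lines, all with the higher change in WT female and beside 9.07% of genes, among them Mdm2 (1.24, 5.81e-05), Cdkn1a (1.39, 0.00139) and Trp53inp1 (1.05, 0.000195). Without replicate 1 instead, the difference for Perp was -1.93 there. Between the RlimKO-labelled and male lines, the differences without replicate 1 were 0.63 for Trp53, -0.96 for Cdkn1a, -0.64 for Trp53inp1 and -1.87 for Perp. Without replicate 2 they were 1.20 for Mdm2 and 0.75 for Trp53inp1. Each of these fits keeps only 1 differentiated male library.

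Markers of cell state moved with these changes. All 8 pluripotency markers fell in each line: their summed level was 117 and 108 CPM in differentiated against 1788 and 1769 CPM in undifferentiated RlimKO-labelled libraries, 227 and 229 against 1957 and 2101 CPM in WT female libraries, and 64.3 and 200.3 against 1921 and 2000.5 CPM in male libraries. Fibroblast markers summed to 7606 and 7285 CPM in differentiated against 1.75 and 33.2 CPM in undifferentiated RlimKO-labelled libraries. The sums were 5453 and 4385 against 4.73 and 6.67 CPM in WT female libraries. In male libraries they were 6703 and 2832 against 43.1 and 31.1 CPM. Of these 7 markers 6 were called higher in each line. In each line 1 had a value below 0, called lower in the male line only. Summed visceral endoderm, mesoderm and heart, and trophoblast markers were also higher in each line, those of neural and blood markers not in every line. The part of these markers' cells in the levels of the p53 targets was not tested.

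The second question was how the RlimKO-labelled line stood against the WT female line in the same state. After differentiation 8 of the 10 members, all but Trp53 and Mdm2, were lower in both RlimKO-labelled libraries than in either WT female library, beside 28.4% of all tested genes. No member passed edgeR's test, beside 2.59% of all genes called. At an unadjusted p below 0.05 there were 6 members, beside 14.6% of genes, and DESeq2 called 3 (Cdkn1a, Ccng1 and Trp53inp1), beside 2.48% of the genes it tested. The median log2 fold change was -0.75 over the members and -0.00 over all tested genes. That most of these p53 targets have lower values here was known when the members were chosen.

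Cdkn1a averaged 43.0 CPM in differentiated RlimKO-labelled libraries and 93.3 CPM in WT female libraries, a log2 fold change of -1.14 ± 0.31 (edgeR adjusted p = 0.0722). Ccng1 averaged 256 CPM in RlimKO-labelled and 427 CPM in WT female libraries (-0.74 ± 0.19, 0.0572). Trp53inp1 averaged 76.1 CPM in RlimKO-labelled and 152 CPM in WT female libraries (-0.99 ± 0.30, 0.102). These 3 genes came closest to the threshold, each with both libraries of one line beyond both of the other. Sesn2 (-1.02 ± 0.32, adjusted p = 0.117), Bax (-0.62 ± 0.21, 0.162), Bbc3 (-1.22 ± 0.54, 0.303), Phlda3 (-0.62 ± 0.31, 0.379) and Perp (-0.77 ± 0.60, 0.614) had the same sign. Trp53 (0.03 ± 0.18, adjusted p = 0.964) and Mdm2 (0.12 ± 0.23, 0.887) overlapped between the lines. The gene of p53 and Mdm2, which is both a p53 target and the gene of its main inhibitor, were thus the only members whose libraries overlapped.

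These calls depended on the differentiated male pair, which is in neither group. In a model of the 4 libraries compared, 8 members were called, all lower, beside 18.8% of the 11475 genes tested in that model: Trp53inp1 (-0.99, adjusted p = 1.62e-07), Cdkn1a (-1.16, 3.79e-06), Ccng1 (-0.73, 6.35e-06), Sesn2 (-1.04, 0.00271), Bax (-0.62, 0.00618), Perp (-0.79, 0.0187), Phlda3 (-0.68, 0.0258) and Bbc3 (-1.28, 0.0465). Without differentiated male replicate 1 there were 7 calls in the model of all groups (all of these but Bbc3), beside 12.5% of genes, and without replicate 2 there were 6 (all but Bbc3 and Phlda3), beside 12.5%, all lower. For example, Cdkn1a had -1.20 (3.31e-08) without male replicate 1 and -1.18 (8.11e-08) without replicate 2. Leaving out any other library gave no call. Without filter on low counts 4 were called (Cdkn1a, Ccng1, Trp53inp1 and Sesn2). RLE factors, the stricter filter and TMM without Rn45s and Lars2 each called 1, Ccng1. The 2 lines also differed in cell markers after differentiation: 3 of 8 pluripotency markers were called lower in the RlimKO-labelled line, with sums of 117 and 108 CPM against 227 and 229 CPM in the WT female line, and 3 of 7 visceral endoderm markers were lower, with sums of 185 and 173 CPM against 495 and 524 CPM. Of 5 tested mesoderm and heart markers, Hand1 was higher (log2 1.73 ± 0.25) and Actc1 (-2.62 ± 0.43) and Tnnt2 (-2.35 ± 0.53) were lower. The neural marker Nes was lower as well (-1.55 ± 0.23), so the markers called moved both ways. Of these 10 marker calls, that of Apob alone (visceral endoderm) held without any 1 library. Rn45s took 67.7% and 30.8% of counts in RlimKO-labelled and 38.5% and 42.4% in WT female libraries. The part of these differences in the result was not tested, and genotype and line cannot be told apart.

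Before differentiation the same contrast gave 5 members lower without overlap (Ccng1, Trp53inp1, Bbc3, Perp and Sesn2), beside 21.4% of all tested genes, and 1 higher, Mdm2, beside 19.3%. None was called by edgeR, beside 0.242% of all genes, with 4 members at an unadjusted p below 0.05 beside 10.1% of genes, and DESeq2 called none, beside 0.878%. The median was -0.57 over the members and -0.01 over all genes. Sesn2 averaged 24.7 CPM in RlimKO-labelled and 49.2 CPM in WT female libraries (-1.01 ± 0.30, adjusted p = 0.229). Bbc3 averaged 3.77 CPM in RlimKO-labelled and 9.49 CPM in WT female libraries (-1.41 ± 0.56, 0.417). Trp53inp1 averaged 90.0 CPM in RlimKO-labelled and 149 CPM in WT female libraries (-0.73 ± 0.31, 0.455), and Ccng1 114 CPM and 171 CPM (-0.59 ± 0.20, 0.329). Cdkn1a was at 19.2 CPM in RlimKO-labelled and 18.8 CPM in WT female libraries (0.01 ± 0.40, adjusted p = 1). With either differentiated male library left out, Ccng1, Trp53inp1 and Sesn2 were called, beside 3.08% of genes without replicate 1 and 3.1% without replicate 2. Their values were -0.56 (0.00807), -0.71 (0.000708) and -1.01 (0.00302) without replicate 1, and -0.58 (0.00655), -0.72 (0.000563) and -1.02 (0.00292) without replicate 2. The model of the 4 libraries compared also called Ccng1, Trp53inp1 and Sesn2, beside 3.2% of genes.

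**Figure D3:**
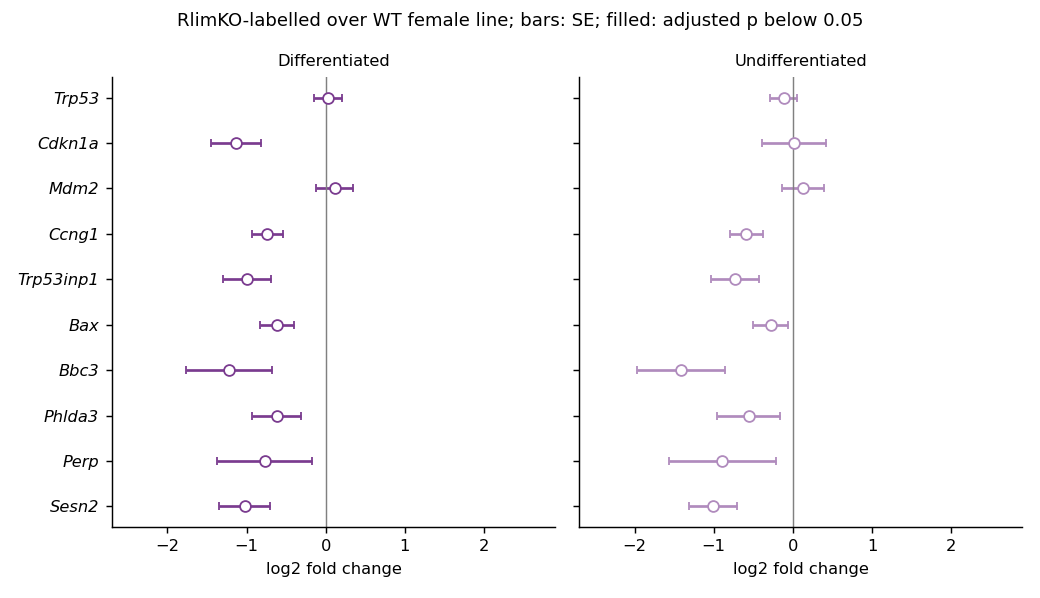
Log2 fold change of each gene, RlimKO-labelled over WT female line, in differentiated (left) and undifferentiated (right) cells (x axis, bars are standard errors, n = 2 libraries per group). All points are open, as none reached an edgeR adjusted p below 0.05, and 8 of 10 lie left of 0 on each side, with Cdkn1a at -1.14 in differentiated and 0.01 in undifferentiated cells.

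Against the male line, which both female lines were compared with, few members differed. Differentiated WT female libraries had more Bax than male ones (42.9 and 26.0 CPM on average, log2 fold change 0.72 ± 0.20, edgeR adjusted p = 0.0415), 1 of 10 members beside 8.97% of all genes (4.67% higher). Ccng1 (0.58 ± 0.19, 0.0694) was also higher in both WT female libraries, as were 26% of all genes, while the other 8 members overlapped. The Bax call held in 4 of 12 fits that left out a library: those without undifferentiated WT female replicate 1 or 2 or differentiated male replicate 1 or 2. It was lost without undifferentiated RlimKO-labelled replicate 1 (0.73, adjusted p = 0.0548) or 2 (0.73, 0.0549), undifferentiated male replicate 1 (0.73, 0.0666) or 2 (0.72, 0.0685), differentiated WT female replicate 1 (0.72, 0.199) or 2 (0.73, 0.217), and differentiated RlimKO-labelled replicate 1 (0.72, 0.071) or 2 (0.72, 0.07). DESeq2 did not call Bax (0.72, 0.0857) and called Ccng1 in its place (0.58, 0.042), beside 7.02% of the genes it tested, and in a model of the 4 libraries compared Bax was not called (0.73, 0.19). Perp, at -0.34 ± 0.53 (0.745), was -1.07 (0.000164) without differentiated male replicate 1 and 1.66 (0.000388) without replicate 2. Without that replicate 2, 6 members were called higher in WT female, beside 16.4% of genes: Ccng1 (0.98, 4.03e-07), Trp53inp1 (1.06, 4.59e-07), Cdkn1a (1.24, 2.85e-06), Mdm2 (0.76, 0.000433), Perp and Bax. Without replicate 1, Trp53 had 0.41, against 0.15 in the fit of all 12 libraries. In undifferentiated cells no member was called between WT female and male lines by edgeR, beside 6.63% of all genes. Mdm2 was the 1 member at an unadjusted p below 0.05, beside 21.5% of genes (-0.54 ± 0.25, edgeR adjusted p = 0.232), and DESeq2 called none. Without differentiated male replicate 1 or 2 the values were -0.47 and -0.48 for Mdm2 and 0.87 and 0.86 for Perp.

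Between the RlimKO-labelled and male lines, 1 member was called in each state. Differentiated RlimKO-labelled libraries had less Sesn2 than male ones (11.0 and 23.9 CPM on average, -1.19 ± 0.31, edgeR adjusted p = 0.0251), beside 11.6% of all genes called (5.97% lower). Bbc3 was also lower in both libraries (-1.45 ± 0.52, 0.084), as were 26.2% of all genes. The Sesn2 call was lost without differentiated RlimKO-labelled replicate 1 (-1.39, adjusted p = 0.0729) or 2 (-0.93, 0.305) and without differentiated male replicate 2 (-0.77, 0.0653). Without differentiated male replicate 1, 7 members were called lower (all but Trp53, Mdm2 and Bax), beside 33.7% of genes, and without replicate 2, Mdm2 was called higher (0.85, 8.54e-05). In undifferentiated cells 8 members were lower in both RlimKO-labelled libraries (all but Phlda3 and Perp), beside 35.1% of all genes. Bbc3 was called, beside 10% of all genes (5.41% lower): it averaged 3.77 CPM in RlimKO-labelled and 12.1 CPM in male libraries (-1.75 ± 0.53, edgeR adjusted p = 0.0487). This call held in 3 of 12 fits that left out a library, with values between -0.94 and -1.90 where it was lost. It was lost without any 1 library except undifferentiated RlimKO-labelled replicate 1 and the 2 differentiated male libraries, and under DESeq2 (-1.68, 0.114). Without differentiated male replicate 1 or 2 the values were -0.69 and -0.71 for Trp53inp1 and -0.86 and -0.88 for Sesn2. In the fit of all 12 libraries they were -0.77 and -0.94.

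The wider pathway was read from 5 lists of 67 genes in all, of which 65 were tested. Among 15 tested regulators of p53, 6 rose and 7 fell on differentiation in the RlimKO-labelled line, 1 rose and 7 fell in the WT female line, and 2 rose and 8 fell in the male line. That is 13, 8 and 10 of 15 called, beside 48%, 48.7% and 54% of all genes. Usp7, a deubiquitinase of Mdm2 and p53, fell in each (log2 -0.95 ± 0.15, -1.24 ± 0.15 and -1.62 ± 0.15 in the RlimKO-labelled, WT female and male lines). Sirt1, a deacetylase of p53, also fell in each (-1.12 ± 0.21, -1.93 ± 0.21 and -1.64 ± 0.20), as did Chek2, a damage kinase upstream of p53 (-1.75 ± 0.36, -2.04 ± 0.33 and -2.48 ± 0.30). The RlimKO-labelled count was lower in each fit that left out 1 library of that line. The share of all genes called in those fits is not set beside it, so this drop is no result about the regulators.

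Other targets split in both directions, and their counts are to be read beside the same 48%, 48.7% and 54% of all genes called (26.4%, 26.5% and 28.7% higher, 21.6%, 22.2% and 25.4% lower, in the RlimKO-labelled, WT female and male lines). Of 9 arrest genes, 2 rose and 4 fell in the RlimKO-labelled line, 4 rose and 3 fell in the WT female line, and 3 rose and 3 fell in the male line. Plk2, a kinase induced by p53, had 68.0 and 70.0 CPM in differentiated against 7.59 and 9.80 CPM in undifferentiated RlimKO-labelled libraries and rose in each line (log2 2.96 ± 0.23, 2.89 ± 0.21 and 2.54 ± 0.19), whereas Gtse1, a p53-regulated G2 protein, fell (-1.04 ± 0.24, -0.85 ± 0.22 and -0.79 ± 0.21). Of 12 cell-death genes, 3 rose and 4 fell in the RlimKO-labelled line, and 3 rose and 3 fell in each WT line. Apaf1, the core of the apoptosome, rose (1.34 ± 0.22, 1.38 ± 0.23 and 1.45 ± 0.22), and Bid, which links death receptors to Bax, fell (-2.33 ± 0.37, -2.16 ± 0.33 and -2.33 ± 0.31).

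Fas, a death receptor, had 4.78 and 7.56 CPM in differentiated RlimKO-labelled libraries and no count in the undifferentiated ones, and 8.09 and 7.15 CPM in differentiated WT female libraries and again no count in the undifferentiated ones. Its level in the male line was 5.05 and 3.76 CPM in differentiated against 0.743 and 0.220 CPM in undifferentiated libraries. Fas rose there with a log2 fold change of 3.25 ± 0.73 (edgeR adjusted p = 0.00222), a call lost without undifferentiated male replicate 2 (2.50, 0.0508). Of 16 tested repair and metabolism genes, 2 rose and 5 fell in the RlimKO-labelled line, 3 rose and 3 fell in the WT female line, and 3 rose and 4 fell in the male line, or 7, 6 and 7 of 16 called, beside 48%, 48.7% and 54% of all genes. Polk, a translesion polymerase, rose (1.26 ± 0.22, 1.53 ± 0.21 and 1.03 ± 0.19), and Gls2, a mitochondrial glutaminase, fell (-4.10 ± 0.39, -2.37 ± 0.38 and -2.66 ± 0.33). Without differentiated male replicate 1, more genes of this list were called in the RlimKO-labelled line. Without undifferentiated male replicate 1, fewer were called in the male line. The share of all genes called in those fits is not set beside these counts. The other genes named from these lists were called in each line in each of the 12 fits that left out 1 library. Of 13 cell-cycle genes that p21 is known to repress, none rose, and 9, 10 and 9 fell in the RlimKO-labelled, WT female and male lines, beside 21.6%, 22.2% and 25.4% of all genes called lower. Mybl2, a subunit of the complex that drives mitotic genes, fell most (-3.23 ± 0.34, -3.07 ± 0.32 and -2.90 ± 0.31), and Cdc20 and Ccnb2, a mitotic activator and a mitotic cyclin, fell in each line as well.

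Between the RlimKO-labelled and WT female lines after differentiation, 1 of these 65 genes was called, beside 2.59% of all genes. It was Ptprv, a phosphatase gene induced by p53 in mouse cells. It had 1.59 and 2.19 CPM in RlimKO-labelled libraries, against 15.2 and 11.1 CPM in WT female libraries. The log2 fold change was -2.72 ± 0.41 (edgeR adjusted p = 0.00332), and the call was lost without differentiated WT female replicate 1 (-2.47, 0.0523) or differentiated RlimKO-labelled replicate 1 (-2.58, 0.0523) or 2 (-3.03, 0.0868). All 9 arrest targets, 11 of 12 cell-death targets and 14 of 16 repair and metabolism targets had values below 0, with medians of -0.58, -0.42 and -0.38 beside -0.00 over all genes. Regulators had a median of 0.06 with 10 of 15 above 0, and the genes repressed through p21 had a median of 0.22 with 11 of 13 above 0. A model of the 4 libraries compared called 5 arrest targets lower, 4 cell-death targets lower and 1 higher, 5 repair and metabolism targets lower, 1 regulator lower and 2 higher, and 1 p21-repressed gene higher, beside 18.8% of all genes called in that model. In undifferentiated cells none of the 65 was called by edgeR, beside 0.242% of all genes. There were 9 at an unadjusted p below 0.05, beside 10.1% of all genes, and DESeq2 called 1, in repair and metabolism, beside 0.878%. The medians were -0.36, -0.26 and -0.04 for the target lists, -0.16 for the regulators and -0.19 for the p21-repressed genes.

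**Figure D4:**
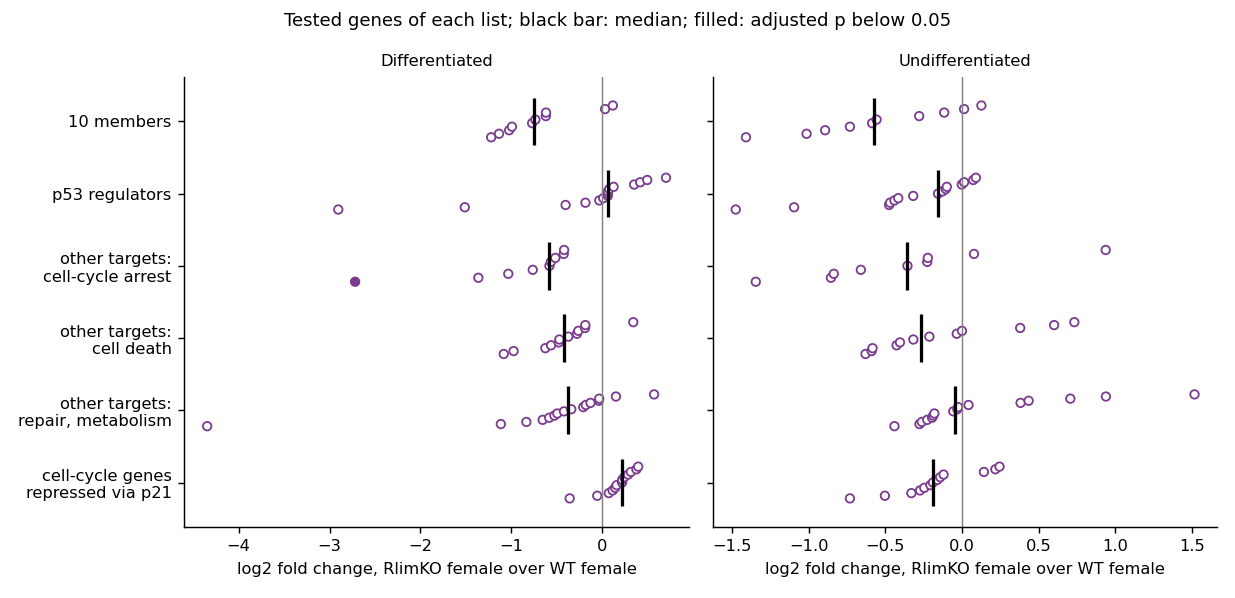
Log2 fold change, RlimKO-labelled over WT female line, of each tested gene of 6 lists in differentiated (left) and undifferentiated (right) cells, with the median as a black bar and calls filled. After differentiation the medians of the 10 members and the 3 lists of other targets lie between -0.75 and -0.38, those of the regulators and the p21-repressed genes at 0.06 and 0.22, and Ptprv at -2.72 is the filled point.

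Over the 12 libraries, the genes whose log2 level ran most like that of Trp53 among 8109 genes of at least 10 CPM were Chd1l (Pearson r = 0.991), Ppil1 (0.989), Rcc2 (0.989), Phc1 (0.987) and Mcm2 (0.987). For Cdkn1a they were Txndc12 (0.961), Ccnd2 (0.945), Ctsb (0.944), Clu (0.942) and Mob1b (0.938). For Mdm2 they were Stxbp2 (0.948), Nck1 (0.946), Rlf (0.944), Pank4 (0.936) and Tbpl1 (0.932). Within the members, Trp53 ran against Cdkn1a (r = -0.869), Phlda3 (-0.871), Ccng1 (-0.857) and Mdm2 (-0.793) and with Bax (0.728) and Sesn2 (0.698). Cdkn1a ran with Ccng1 (0.914), Phlda3 (0.848) and Mdm2 (0.809). These values describe 12 libraries that fall into 2 states and share their depths, and they carry no test.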

How the data were processed

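The deposited table holds whole-number counts per gene, made by the authors from 12 libraries. The submitters' processing notes name bcl2fastq 2.16.0.10, TopHat2 2.0.12, HTSeq 0.6.1p1, edgeR 3.10.0 and mm10. Alignment settings, annotation and strand handling are not given in the sources used here. Per the labels' protocols, libraries were made by template switching and tagmentation, which do not mark strand and carry no molecular identifiers, so precision from counts covers counting error only. Entries that name no gene stayed out: reads on no feature were 45.4% to 53.3% and ambiguous ones 0.241% to 0.926% of each library.

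Differences were tested in R 4.3.3 with edgeR 4.0.16 on the deposited counts: 1 model with 6 group means over 12 libraries, TMM factors, filterByExpr (12814 genes kept), the quasi-likelihood F test and Benjamini-Hochberg adjustment at 0.05. CPM are per 1e+06 of TMM-scaled library size. Alternatives were RLE factors, TMM without Rn45s and Lars2, no filter, CPM of at least 5 in 2 libraries, a replicate block, only the libraries compared, DESeq2 1.42.0, and leaving out libraries; limma 3.58.1 was loaded with edgeR. The procedure was tested on simulated data. With 2 libraries against 2, the smallest exact permutation p is 0.33. Promoter windows are RefSeq's (GRCm38.p6).

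The members and lists were chosen with earlier results of these data known. All 10 members were named, with Rlim as a check. From each wider list, up to 4 called genes per comparison and direction with the smallest p could be named, and those described were preferred, after values were seen, for holding in every fit that left out 1 library, except Fas, shown because it had no count in undifferentiated female libraries. For Trp53, Cdkn1a and Mdm2 the 5 genes of highest Pearson r on log2(CPM + 1) were named. 3 listed genes were found under older symbols.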

Additional observations from a re-analysis of the deposited data

Results flagged for a closer look

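Among the other p53 genes, 3 changes on differentiation differed between lines by the interaction test of edgeR. They are 1 of 65 tested genes between the WT female and male lines, beside 1.39% of all genes, and 2 of 65 between the RlimKO-labelled and male lines, beside 2.61%, so the shares are near the background. Pmaip1 encodes Noxa, which promotes cell death. It had 7.97 and 8.05 CPM in differentiated against 26.3 and 27.3 CPM in undifferentiated RlimKO-labelled libraries, 17.2 and 14.3 against 41.0 and 41.9 CPM in WT female libraries, and 8.27 and 16.0 against 8.17 and 10.4 CPM in male libraries. Its levels fell in both female lines and overlapped in the male line. The change in the WT female line minus that in the male line was -1.80 ± 0.42 on the log2 scale (edgeR adjusted p = 0.0488), called in 2 of 12 fits that left out a library, those without a differentiated male library, with p up to 0.207. The change in the RlimKO-labelled line minus that in the male line was -2.15 ± 0.45 (adjusted p = 0.0225), called in 6 of 12 such fits with p up to 0.135.

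Mdm4 encodes a partner of Mdm2 that inhibits p53. It had 112 and 121 CPM in differentiated against 82.9 and 87.8 CPM in undifferentiated RlimKO-labelled libraries, and 116 and 123 against 146 and 164 CPM in male libraries. The change in the RlimKO-labelled line minus that in the male line was 0.82 ± 0.20 (edgeR adjusted p = 0.0426). It was called in 2 of 12 fits that left out a library, with p up to 0.233, and was not called with RLE factors (0.0569), with TMM without Rn45s and Lars2 (0.0772) or by DESeq2 (0.0712).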

How the results depend on the processing

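Of 2398 alternative values for 120 member results, 2214 were called or uncalled as in the main fit, 49 lost the call, 130 gained one and 5 reversed. Among the 2214 are 118 uncalled values that changed sign. The reversals all involved the differentiated male pair: Trp53inp1 in the male line was 0.35 (adjusted p = 0.0318) without replicate 1 and -1.03 without replicate 2, Perp in differentiated WT female against male cells was -1.07 without replicate 1, 1.66 without replicate 2 (0.000388) and 1.66 without both libraries of extreme Rn45s share (0.000451), and the Trp53inp1 change in the RlimKO-labelled minus the male line was -0.64, 0.75 (0.0153) and 0.86 (0.0094) in those fits. The cause was not tested. Counts of members called in other settings are to be read beside the share of all genes called, which changed with the setting too. For RlimKO-labelled against WT female differentiated cells it was 2.59% in the main fit, 18.8% with only the libraries compared and 2.48% by DESeq2. For undifferentiated cells it was 0.242%, 3.2% and 0.878%. The counts of members that follow are given without this share in most settings. They describe how the fits vary and are no result about the members.

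Leaving out 1 library gave 3 to 7 members called on differentiation in the RlimKO-labelled line, 4 to 6 in the WT female line and 5 to 9 in the male line, against 6 in each. For RlimKO-labelled against WT female cells, differentiated, the count of 0 became 0 to 7 without 1 library, 1 with RLE factors, 1 with TMM without Rn45s and Lars2, 4 with no filter, 1 with the stricter filter, 8 with only the libraries compared, 3 by DESeq2 and 6 without the extreme pair; undifferentiated, 0 became 0 to 3, 2 with no filter, 3 with only the libraries compared and 3 without the extreme pair. For WT female against male cells, differentiated, 1 became 0 to 6, 2 with no filter, 0 with only the libraries compared and 6 without the extreme pair; undifferentiated, 0 became 0 to 2, 2 and 1 in the last 2 settings. For RlimKO-labelled against male cells, differentiated, 1 became 0 to 7, 5 with no filter and 0 with only the libraries compared; undifferentiated, 1 became 0 to 3, 0 with RLE factors, TMM without Rn45s and Lars2, the stricter filter and DESeq2, 3 with no filter, 3 with only the libraries compared and 5 without the extreme pair. The interaction of the RlimKO-labelled and WT female lines had 0 calls, 0 to 1 without 1 library and 1 with only the libraries compared or without the extreme pair, that of WT female and male lines had 0 calls, 0 to 5 without 1 library and 5 without the extreme pair, and that of RlimKO-labelled and male lines had 0, 0 to 4 and 3.

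Replicate numbers did not pair the samples: deviations of same-numbered libraries correlated between -0.0621 and 0.116. With a replicate block, 1 member was called between RlimKO-labelled and WT female differentiated cells, against 0 without it, 2 against 1 between WT female and male differentiated cells, and 0 against 1 between RlimKO-labelled and male undifferentiated cells. All genes called between RlimKO-labelled and WT female cells numbered 332 differentiated (12 to 1680 without 1 library, 779 with no filter, 2154 with only the libraries compared, 1152 without the extreme pair) and 31 undifferentiated (0 to 413, 144, 303 and 412, and 70 by DESeq2). TMM without Rn45s and Lars2 moved the median of all genes by -0.11 for differentiation of the RlimKO-labelled line and for its change minus the male change. With DESeq2 the median differed by 0.11 for RlimKO-labelled against male undifferentiated cells. That median was taken over every gene with a count, a wider set than the 12814 genes, so it does not measure scaling alone. Depth limits Bbc3 most, at 4 to 79 counts per library.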
